A study of Mus musculus with 6 samples.

Results

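The genes described here encode the proteins of the mitochondrial ribosome. They were taken by symbol, as the genes whose names begin with Mrpl or Mrps followed by a digit, and 76 of the 18193 genes with a probe set of 1 gene symbol on the array met the rule. By symbol, 47 belong to the large subunit (Mrpl) and 29 to the small subunit (Mrps). A probe set is a group of array probes read as 1 measurement. Where a gene has several, the one of highest mean signal in the 6 arrays stands for it.

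The arrays measured RNA of LT-HSCs (long-term haematopoietic stem cells), marrow cells that maintain blood formation, sorted as Lin-Sca1+CD150+CD48- from mice of mixed background at 8 weeks of age. Double knockout (dKO) mice were MxCre c-myc f2 N-myc f2, so that both floxed genes, Myc and Mycn, could be removed by a Cre recombinase whose promoter answers to interferon. Control mice were c-myc f2 N-myc f2 and lacked the recombinase. Mice of both groups received pI-pC, a synthetic double-stranded RNA that induces interferon, in 2 daily doses, and marrow was taken 3 days after the last. There were 3 dKO arrays, each from a pool of 3 mice, and 3 control arrays, each from a pool of 2 mice. The Mx promoter is not restricted to stem cells, so other blood cells of the dKO mice can lose the genes too, and an effect of the recombinase itself cannot be told apart from that of the deletion.

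Mitochondria carry their own ribosome, which translates the few mRNAs of the mitochondrial genome into membrane subunits of the respiratory chain and the ATP synthase. Its RNAs come from mitochondrial DNA, but every one of its proteins is encoded in the nucleus, made on cytosolic ribosomes and imported. Many of these proteins descend from bacterial ribosomal proteins, and the others were added in the mitochondrial lineage. Myc is known for raising ribosome production and, in several cell types, genes of mitochondrial biogenesis. LT-HSCs are known for low mitochondrial activity at rest.

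The deleted genes were checked first. Myc read 7.28, 7.77 and 7.24 in dKO arrays, against 10.40, 10.57 and 10.12 in control arrays, on the log2 scale of the deposited RMA values (a difference of -2.93 ± 0.20 SE, adjusted p = 0.00137). Mycn was lower by -7.35 and -1.61 at 2 of its probe sets (adjusted p = 2.34e-05 and 0.00938), and the third differed by -0.08. An exact permutation test of 3 arrays against 3 cannot go below a two-sided p of 0.1, and Myc reached it. Across the array 3146 of 45037 probe sets passed the threshold, an adjusted p under 0.05 in limma, which is 6.99%.

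The sort was checked against markers. The mean level of 10 LT-HSC markers was 8.36 to 8.87 in dKO arrays and 9.45 to 9.55 in control arrays. Of the 10, 4 were called lower (Tek, Kit, Hlf and Hoxb5), while Slamf1, which encodes the CD150 used in the sort, differed by 0.08. Beside this and the marker counts that follow, 3.56% of all genes were called lower and 4.49% higher. Cd48, the marker sorted against, was higher in dKO, at 9.55, 9.66 and 9.03 in dKO arrays, against 8.34, 8.01 and 8.39 in control arrays. The mean level of 8 megakaryocyte and platelet markers was 8.26 to 8.57 in dKO arrays and 7.34 to 7.59 in control arrays. Of the 8, 3 were higher (Ppbp by 5.67, Itga2b by 1.16 and Pf4 by 1.11) and 1 lower (Vwf, -1.04). Ppbp weighs most in that mean, and the median difference of the 8 was 0.37, with 5 above 0 and 3 below. Of 8 macrophage markers 1 was higher (C1qb), with mean levels of 5.52 to 5.63 in dKO and 5.17 to 5.34 in control arrays. Of 8 T and NK cell markers 1 was higher (Klrk1), at 5.12 to 5.52 in dKO and 4.91 to 4.93 in control arrays, and of 7 erythroid markers 1 was lower (Klf1), at 6.43 to 6.94 in dKO and 6.96 to 6.99 in control arrays. The granulocyte and monocyte list (10 measured) and the B cell list (8 measured) had no call, with mean levels of 5.44 to 6.74 and 5.14 to 5.69 in dKO arrays and 6.27 to 7.24 and 5.27 to 5.59 in control arrays. The signal of Gapdh toward its 3′ end exceeded that toward its 5′ end by 2.39 to 2.47 in dKO arrays and by 2.12 to 2.36 in control arrays, a measure of RNA integrity and amplification. The part of other cells, or of RNA quality, in the values below was not tested. In sorted bulk cells, a shift in which cells were present and a shift in RNA per cell cannot be told apart, and RMA places the arrays on a common scale, so that each change is relative to the other genes of its array.

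Few mitochondrial ribosomal protein genes passed the threshold in dKO LT-HSCs. Of the 76 genes, 2 were lower, Mrpl9 and Mrpl48, against a background of 3.56% of all genes called lower. None was higher in the limma fit, against 4.49% of all genes. At an unadjusted p under 0.05 there were 19 genes, 12 higher and 7 lower, 1 in 4 of the list, beside 23.1% of all genes. Nearly all members lay at or above the median level of the array. Of the 10357 genes at or above it, 12.6% were called in either direction and 33.7% had an unadjusted p under 0.05. The median change was 0.11 and 44 genes lay above 0 and 32 below it. The median of all genes was 0.01.

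The sign of that small median was not stable. It was -0.03 when each gene was given the mean of its probe sets, and -0.11 when each gene was given its most variable probe set. Without control replicate 3 it was 0.03.

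**Figure D1:**
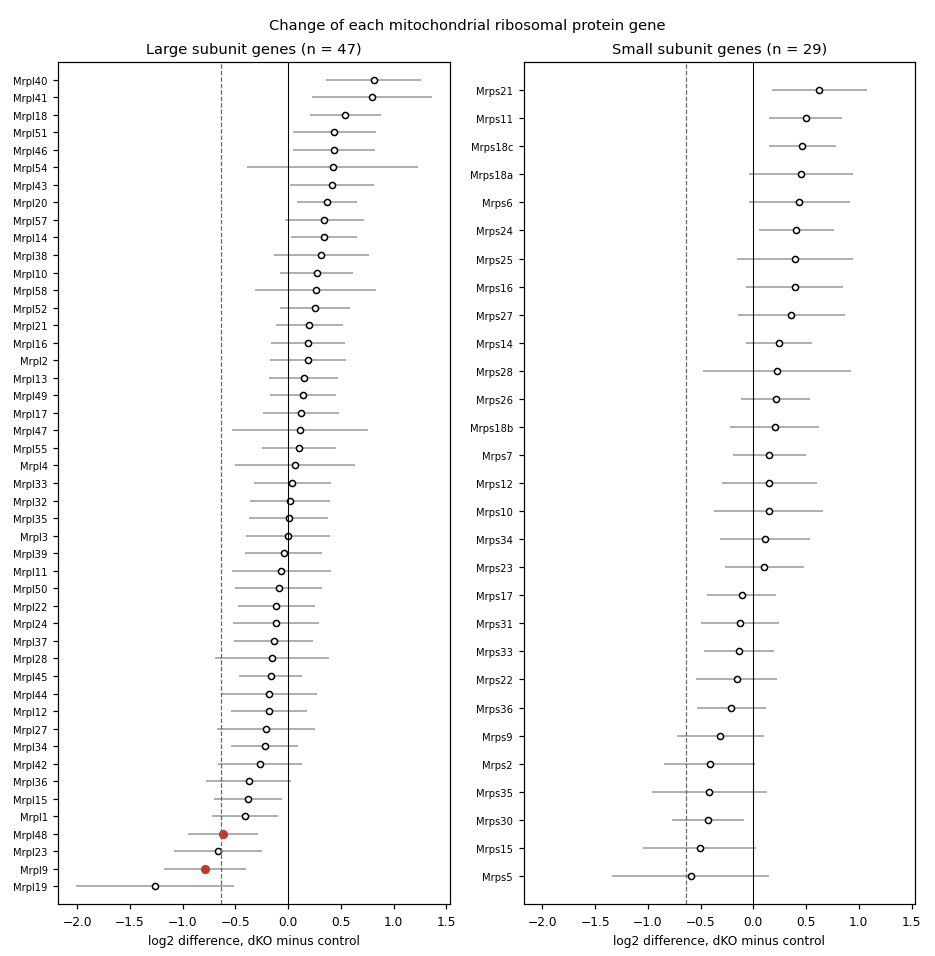
Change of each mitochondrial ribosomal protein gene on the log2 scale, dKO minus control, with its 95% confidence interval, for 47 large and 29 small subunit genes. Filled points are the 2 genes past the threshold, Mrpl9 and Mrpl48, and the dashed line is the median of 42 cytosolic ribosomal protein genes, -0.64; intervals of most genes cross 0 and points lie on both sides of it.

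Promoters of 4 members are shown because they belong to the genes called lower (Mrpl9, Mrpl48), the member of smallest p among the uncalled small subunit genes (Mrps18c) and Mrpl43, a large subunit gene whose difference of 0.41 was not called. They are RefSeq windows of GRCm38.p6, from 250 bases before to 50 bases after an annotated start, printed 5′ to 3′ on the gene's strand. Capitals mark the motifs searched on both strands: the E-box CACGTG, which Myc binds with Max, the ETS-type motif CCGGAAG, the NRF1 core CGCATGCG and the YY1 core AAGATGGC. Mrpl9 lies at chr3:94443086-94443385 on the plus strand, Mrpl48 at chr7:100583081-100583380 on the minus strand, Mrps18c at chr5:100798509-100798808 on the plus strand and Mrpl43 at chr19:45006393-45006692 on the minus strand.
Mrpl9: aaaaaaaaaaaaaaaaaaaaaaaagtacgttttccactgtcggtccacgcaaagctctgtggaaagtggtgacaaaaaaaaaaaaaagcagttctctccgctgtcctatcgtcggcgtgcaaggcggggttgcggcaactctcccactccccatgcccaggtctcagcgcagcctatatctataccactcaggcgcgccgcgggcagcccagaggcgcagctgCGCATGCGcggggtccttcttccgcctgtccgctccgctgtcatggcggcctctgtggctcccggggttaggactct
Mrpl48: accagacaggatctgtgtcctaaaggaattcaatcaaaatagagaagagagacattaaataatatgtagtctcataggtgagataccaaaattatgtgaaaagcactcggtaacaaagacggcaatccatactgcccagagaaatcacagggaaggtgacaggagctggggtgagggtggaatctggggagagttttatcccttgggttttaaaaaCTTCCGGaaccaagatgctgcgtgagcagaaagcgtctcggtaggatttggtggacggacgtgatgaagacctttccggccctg
Mrps18c: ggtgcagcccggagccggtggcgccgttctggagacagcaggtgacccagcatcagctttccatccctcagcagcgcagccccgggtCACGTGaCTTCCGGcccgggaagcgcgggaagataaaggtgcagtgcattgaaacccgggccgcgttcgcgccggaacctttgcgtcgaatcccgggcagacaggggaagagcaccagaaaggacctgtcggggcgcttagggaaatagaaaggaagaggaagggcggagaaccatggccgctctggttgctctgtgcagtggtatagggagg
Mrpl43: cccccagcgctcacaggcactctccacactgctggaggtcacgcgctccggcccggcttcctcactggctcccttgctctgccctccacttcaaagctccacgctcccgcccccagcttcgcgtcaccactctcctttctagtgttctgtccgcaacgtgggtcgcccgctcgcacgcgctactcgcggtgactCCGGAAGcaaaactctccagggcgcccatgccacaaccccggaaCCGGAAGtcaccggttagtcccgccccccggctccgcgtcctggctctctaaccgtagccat
The Mrpl9 window holds 1 NRF1 core, and the Mrpl48 window 1 ETS-type motif. Mrpl48 has 4 annotated windows and the other 3 hold none of the motifs. The Mrps18c window holds an E-box followed closely by an ETS-type motif, and the Mrpl43 window holds 2 ETS-type motifs.

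RefSeq windows were matched for 67 of the 76 members, and 39 of these held at least 1 of the 4 motifs. The E-box was in 5 of 67 (7.46%), beside 7.15% of 32851 windows of all genes and 10.3% of the 14368 genes of the array with a window. The 5 genes were Mrpl2, Mrpl20, Mrpl36, Mrpl37 and Mrps18c, with changes of 0.19, 0.37, -0.38, -0.14 and 0.47, and none passed limma's threshold; Mrpl20 and Mrps18c had an unadjusted p under 0.05. The ETS-type motif was in 25 of 67 (37.3%), beside 8.86% of all windows and 15.0% of array genes. The YY1 core was in 12 (17.9%), beside 2.75% of windows and 4.09% of array genes, and the NRF1 core in 7 (10.4%), beside 1.87% and 3.28%. The median change was 0.20 in the 25 members with the ETS-type motif and -0.05 in the other matched members. For the E-box the medians were 0.19 with and 0.10 without it, for the YY1 core 0.15 and 0.10, and for the NRF1 core 0.02 and 0.11. They are a description, with no test. These are matches of letters and say nothing of binding.

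Mrpl9 and Mrpl48, the genes called lower, are both proteins of the large subunit. Mrpl9 is the counterpart of bacterial L9, which sits at the base of the L1 stalk. It read 9.36, 9.80 and 9.34 in dKO arrays, against 10.33, 10.30 and 10.24 in control arrays. The groups did not overlap and the control arrays lay close together, while dKO replicate 2 stood above the other dKO arrays. The difference was -0.79 ± 0.16 SE (95% interval -1.17 to -0.40, adjusted p = 0.0342), a level 1.73-fold lower in dKO. Its other 2 probe sets also had separate groups and read lower by -0.55 and -0.42, neither past the threshold (adjusted p = 0.119 and 0.249).

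Mrpl48, a mitochondria-specific protein of the central protuberance, read 8.34, 8.60 and 8.57 in dKO arrays, against 9.24, 9.10 and 9.02 in control arrays. Every dKO array lay below every control array. The difference was -0.62 ± 0.14 SE (95% interval -0.95 to -0.28, adjusted p = 0.0474). Its other 2 probe sets gave -0.32 and -0.21 with overlapping groups.

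Both calls lie near the threshold. Leaving out 1 array at a time, the adjusted p ranged from 0.0315 to 0.108 for Mrpl9, which passed only without dKO replicate 2, and from 0.0855 to 0.133 for Mrpl48, which passed in none of the 6 fits. Mrpl48 also missed the threshold with each array centred on its median (adjusted p = 0.0689) and with the mean over its probe sets (adjusted p = 0.0904).

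The remaining large subunit genes did not pass. Mrpl40, another protein of the central protuberance, had the largest positive difference of the list. It read 9.09, 8.82 and 9.09 in dKO arrays, against 8.25, 8.47 and 7.85 in control arrays, a difference of 0.81 ± 0.19 SE (adjusted p = 0.0518). The groups did not overlap.

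Mrpl18 is the counterpart of bacterial L18, which binds 5S rRNA. It read 10.18, 10.08 and 9.85 in dKO arrays, against 9.47, 9.57 and 9.45 in control arrays, and the groups were again separate. The difference was 0.54 ± 0.14 SE (adjusted p = 0.0698). Mrpl40 and Mrpl18 passed as higher under 4 of the alternative settings each, among them median centring and a filter on level.

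Mrpl19, the counterpart of bacterial L19 at the interface of the subunits, had the largest negative difference. It read 6.95, 8.00 and 7.94 in dKO arrays, against 9.28, 8.61 and 8.79 in control arrays. Although the groups were separate, dKO replicate 1 lay about 1 log2 unit below the other dKO arrays. The difference was -1.26 ± 0.32 SE, with an adjusted p of 0.0623. Its 3 other probe sets gave -0.06, 0.11 and -0.05 with overlapping groups, so the difference was seen at 1 of its 4 probe sets.

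Mrpl23, whose bacterial counterpart lies at the exit of the peptide tunnel, read 8.12, 8.53 and 8.58 in dKO arrays, against 9.26, 9.06 and 8.90 in control arrays (-0.67 ± 0.18 SE, adjusted p = 0.0748). It has 1 probe set. Mrpl1, the protein of the L1 stalk, read 8.04, 8.22 and 7.98 in dKO arrays, against 8.53, 8.52 and 8.41 in control arrays (-0.41 ± 0.13 SE, adjusted p = 0.129). In both genes every dKO array lay below every control array at the probe sets shown. Further probe sets of Mrpl1 gave -0.64 and 0.05 with overlapping groups.

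Mrpl43, a mitochondria-specific large subunit protein, read 7.65, 8.04 and 7.64 in dKO arrays, against 7.53, 7.20 and 7.37 in control arrays. The groups were separate by a small margin. The difference was 0.41 ± 0.17 SE (95% interval 0.01 to 0.81), with an adjusted p of 0.217. Mrpl43 has 1 probe set.

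Among other large subunit genes with separate groups, Mrpl46, also of the central protuberance, differed by 0.43 and Mrpl20 by 0.37 (adjusted p = 0.187 and 0.134). Mrpl52 had the highest mean signal of the list, 11.21, and Mrpl14 the lowest, 5.34. Signals of different probe sets do not rank the amounts of their transcripts. Mrpl52 read 11.41, 11.33 and 11.28 in dKO arrays, against 11.22, 11.13 and 10.90 in control arrays. Mrpl14 read 5.51, 5.62 and 5.38 in dKO arrays, against 5.11, 5.22 and 5.17 in control arrays. In both the dKO arrays were the higher ones, by 0.26 and 0.34, without passing the threshold (adjusted p = 0.353 and 0.191).

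**Figure D2:**
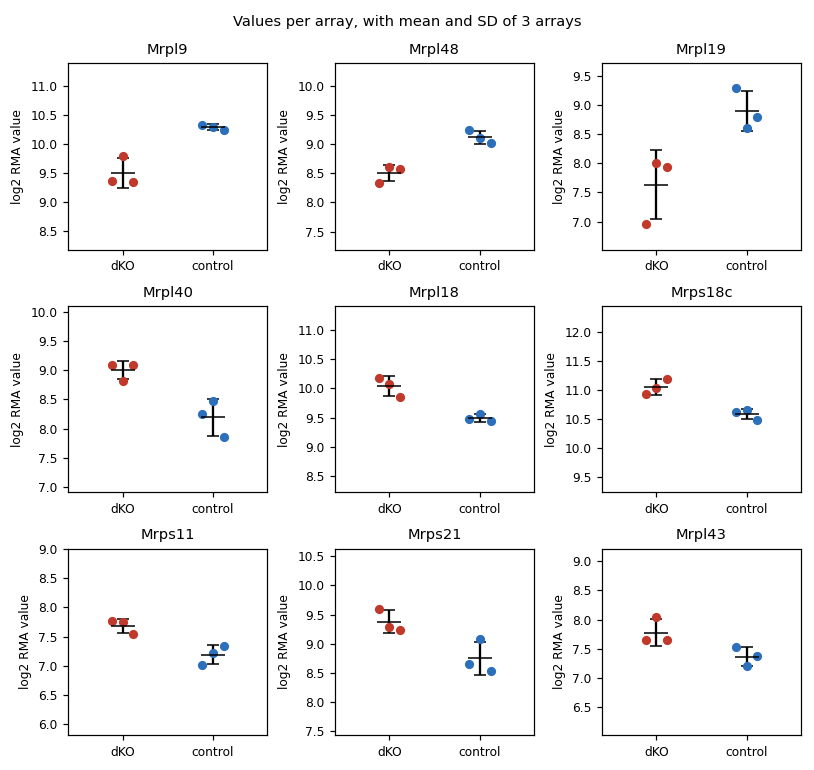
Log2 RMA values of 9 mitochondrial ribosomal protein genes in each of the 3 dKO (left) and 3 control (right) arrays, with the mean and SD as bars; every panel spans the same range of 3.2 log2 units. The dKO arrays lie below the control arrays for Mrpl9, Mrpl48 and Mrpl19 and above them for the other 6 genes, and of the 9 only Mrpl9 and Mrpl48 passed the threshold.

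No small subunit gene passed the threshold, and 5 of 29 (17.2%) had an unadjusted p under 0.05, 4 of them higher and 1 lower, beside 23.1% of all genes. Mrps18c, a paralog of the S18 protein family, read 10.93, 11.04 and 11.20 in dKO arrays, against 10.62, 10.65 and 10.49 in control arrays. The groups were separate, with a difference of 0.47 ± 0.14 SE (adjusted p = 0.0966).

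Mrps11, the counterpart of bacterial S11, read 7.76, 7.75 and 7.55 in dKO arrays, against 7.01, 7.22 and 7.34 in control arrays. Its difference was 0.50 ± 0.15 SE (adjusted p = 0.0992), but a second probe set of the gene gave -0.55 with overlapping groups. The gene's direction therefore turned with the probe set used, to -0.03 for the mean of both.

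Mrps21, the counterpart of bacterial S21, read 9.60, 9.29 and 9.24 in dKO arrays, against 8.66, 9.07 and 8.53 in control arrays. The difference was 0.63 ± 0.19 SE (adjusted p = 0.106), the largest positive one of the small subunit. A second probe set of the gene gave -0.25, and the mean of both 0.19. Mrps24 read 9.34, 9.71 and 9.34 in dKO arrays, against 9.08, 9.02 and 9.08 in control arrays (0.41 ± 0.15 SE, adjusted p = 0.173). At the probe sets shown, the dKO arrays of both genes lay above the control arrays.

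On the lower side, Mrps5, whose bacterial counterpart takes part in accurate decoding, had the largest negative difference of the small subunit. It read 6.49, 7.69 and 7.16 in dKO arrays, against 8.08, 7.50 and 7.56 in control arrays, so that the groups overlapped (-0.60 ± 0.32 SE, adjusted p = 0.338). Without dKO replicate 1 the difference was -0.28, and the mean over its 5 probe sets was called lower (-0.53, adjusted p = 0.0394). Mrps15 overlapped as well (-0.51, adjusted p = 0.256), while Mrps2 had separate groups (-0.41, adjusted p = 0.251, and -0.25 without dKO replicate 3).

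Some symbols do not match the structure of the mammalian mitoribosome. Mrps30 and Mrps18a carry small subunit names but their proteins lie in the large subunit, and Mrps36 is known as a part of the 2-oxoglutarate dehydrogenase complex. Mrps30 read 8.24, 8.16 and 8.01 in dKO arrays, against 8.66, 8.67 and 8.38 in control arrays (-0.43 ± 0.15 SE, adjusted p = 0.136). The groups were separate. Mrps18a differed by 0.45 (0.26 without control replicate 3) and Mrps36 by -0.21, with overlapping groups.

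Both subunits had medians near 0. The 47 large subunit genes had a median of 0.04, with quartiles of -0.17 and 0.27, and an SD of 0.39 between genes. The 29 small subunit genes had a median of 0.15, with quartiles of -0.16 and 0.39, and an SD of 0.35. Of the large subunit 26 genes lay above 0 and 21 below, and of the small subunit 18 and 11. Grouped by structure, 49 large subunit genes had a median of 0.04 and 26 small subunit genes one of 0.15. The difference between the subunits was not tested, since genes are not replicates.

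By ancestry, 27 large subunit proteins with bacterial counterparts had a median of 0.00 and 22 mitochondria-specific ones a median of 0.20. In each, 1 gene was called lower, beside 3.56% of all genes. Mrps18c was counted among those with bacterial counterparts, and its namesakes Mrps18a and Mrps18b as mitochondria-specific. In the small subunit, 16 with bacterial counterparts had a median of 0.19 and 10 mitochondria-specific ones a median of 0.11. Groups were separate upward in 3 and downward in 7 of the 27, and in 7 and 3 of the 22. They were so in 5 and 1 of the 16, and in none of the 10. Beside these, 15.8% of all genes were separate upward and 14.2% downward. The shares were 22.4% and 19.1% of the 10357 genes at or above the median level of the array. The classes are small and were not compared by a test.

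The arrays of the groups were separate in a share of the members near that of all genes. In 15 of the 76 (19.7%) every dKO array lay above every control array, beside 15.8% of all genes, and in 11 (14.5%) every dKO array lay below, beside 14.2% of all genes. Among the 10357 genes at or above the median level of the array, the shares were higher, 22.4% upward and 19.1% downward. By subunit, 10 large subunit genes were separate upward and 9 downward, and 5 small subunit genes upward and 2 downward.

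Large changes were rare among the members. A difference beyond 0.5 in either direction was found in 10 of 76 genes (13.2%), beside 21.0% of all genes, and of these 4 were higher and 6 lower. A difference of 1 or more was found in 1 member, Mrpl19, or 1.32%, beside 5.97% of all genes. The SD of the change between members was 0.37, beside 0.51 for all genes and 0.60 for the 10357 genes at or above the median level of the array. Of the members, 75 had a mean at or above that level. Part of the spread is error, as the median SE of a member was 0.16.

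The intervals set what these arrays could show. The 95% interval of a member reached a median of 0.39 to either side. It lay wholly within 1 log2 unit of 0, a 2-fold change, in 67 of 76 genes. A smaller shift of a single gene was often not detectable with 3 arrays per group.

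The cytosolic ribosomal protein genes gave a comparison within the same arrays. Of 42 such genes taken by symbol, 22 were lower, beside 3.56% of all genes, and none higher in the limma fit. The median was -0.64. At an unadjusted p under 0.05 there were 34 lower and 0 higher, beside 23.1% of all genes in either direction. By sign 41 of 42 were lower, beside 49.3% of all genes. In 39 every dKO array lay below every control array, beside 14.2% of all genes. Rpl37 (3.05 to 3.55) and Rps16 (2.55 to 3.39) read at low signals, and neither was called. The lower end of the 95% interval lay above -0.64 in 60 of the 76 mitochondrial ribosomal protein genes, beside 13355 of all 18193 genes. The SD between genes was 0.37 in each list. The difference between the lists was not tested.

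Array by array, the cytosolic list separated the groups and the mitochondrial list did not. The median deviation of the 76 members from each gene's mean over 6 arrays was -0.02, 0.13 and -0.03 in dKO arrays, against 0.00, 0.05 and -0.11 in control arrays. The ranges of the groups overlapped, and dKO replicate 2 was the highest. For the 42 cytosolic ribosomal protein genes the same measure was -0.30, -0.27 and -0.39 in dKO arrays, against 0.33, 0.41 and 0.31 in control arrays, with wide separation.

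**Figure D3:**
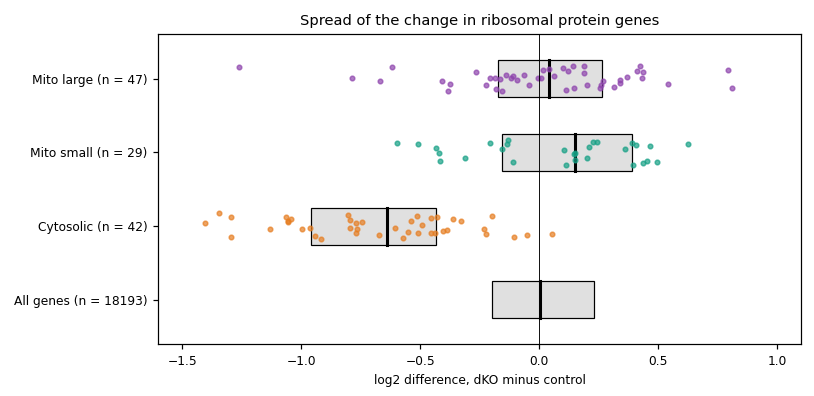
Log2 difference, dKO minus control, of each large (n = 47) and small (n = 29) mitochondrial subunit gene and each cytosolic ribosomal protein gene (n = 42), with boxes from the lower to the upper quartile and a line at the median; for all 18193 genes only the box is drawn. The medians are 0.04, 0.15, -0.64 and 0.01 from top to bottom.

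Further probe sets of the same genes did not always agree. The 76 genes have 156 probe sets, of which 4 were called lower and 2 higher (3.85%, beside the 6.99% of all probe sets). In 34 genes there is 1 probe set. In the other 42 the probe sets had the same sign in 23 genes and both signs in 19, and the median range between the probe sets of a gene was 0.36.

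Of the 80 further probe sets, 4 passed the threshold. For Mrpl41, a mitochondria-specific large subunit protein, a probe set of lower signal read 9.005, 9.32 and 8.99 in dKO arrays, against 8.43, 8.36 and 8.07 in control arrays (0.82, adjusted p = 0.0315). Its representative gave a like difference of 0.79 that did not pass (adjusted p = 0.106), with control arrays spread from 8.59 to 9.52; without control replicate 3 it was 0.53. The remaining probe set of the gene gave -0.04 with overlapping groups. For Mrpl51, also mitochondria-specific, the further probe set read 6.99, 6.54 and 6.97 in dKO arrays, against 5.91, 6.10 and 5.40 in control arrays (1.03, adjusted p = 0.0394), and the representative differed by 0.44. At these 2 probe sets of each gene every dKO array lay above every control array.

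The other 2 were lower. For Mrpl15, the counterpart of bacterial L15, the further probe set past the threshold read 6.20, 6.79 and 6.35 in dKO arrays, against 7.72, 7.17 and 8.06 in control arrays (-1.20, adjusted p = 0.0402). All 8 probe sets of Mrpl15 were lower by sign, the representative by -0.38 (adjusted p = 0.16). For Mrps5, the further probe set past the threshold read 5.54, 5.62 and 5.61 in dKO arrays, against 6.62, 6.15 and 6.23 in control arrays (-0.74, adjusted p = 0.0385), and all 5 of its probe sets were lower by sign.

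**Figure D4:**
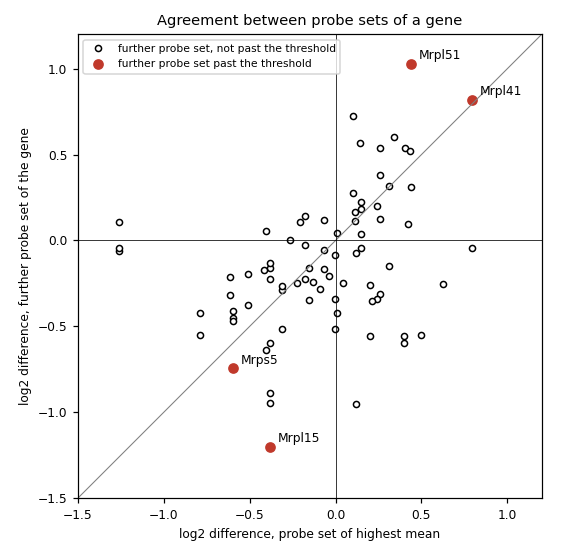
Log2 difference, dKO minus control, of the 80 further probe sets (vertical) against that of the probe set chosen for the same gene (horizontal), for the 42 genes with more than 1 probe set; the diagonal marks equality. Filled points are the 4 further probe sets past the threshold, and points in the upper left and lower right quadrants are probe sets that disagree in sign.

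Genes that work with the mitochondrial ribosome were described from lists of their partners. A few ribosomal proteins carry other names, and 4 of 7 were measured. None passed limma's threshold, and 2 had an unadjusted p under 0.05, beside 23.1% of all genes. Ptcd3, a pentatricopeptide protein of the small subunit, differed by -0.60, Dap3, its GTP-binding protein, by -0.49 and Chchd1 by 0.52 (adjusted p = 0.101, 0.162 and 0.244). For Ptcd3 and Dap3 every dKO array lay below every control array at these probe sets, but the mean over the probe sets of Ptcd3 was -0.21. Without control replicate 3 Chchd1 gave 0.31.

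Assembly factors and rRNA-modifying enzymes included the clearest falls of this pathway. Of 30 measured, 2 fell, beside the 3.56% of all genes called lower, and the median was -0.22. Most genes of these partner lists lay at or above the median level of the array. Of the 10357 genes there, 558 were called lower, a higher share than that of all genes. Noa1, a GTPase needed for the small subunit, read 6.83, 7.19 and 7.27 in dKO arrays, against 8.46, 8.36 and 8.24 in control arrays (-1.26 ± 0.16 SE, adjusted p = 0.00814). C1qbp, a matrix protein needed for mitochondrial translation, read 9.42, 9.59 and 9.59 in dKO arrays, against 10.72, 10.71 and 10.50 in control arrays (-1.11 ± 0.14 SE, adjusted p = 0.00666). The groups of both were wide apart, and both calls held in each of the 14 alternatives run. Gtpbp10, a GTPase of large subunit assembly, gave -0.75 (adjusted p = 0.0671).

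Of 14 translation factors measured, 1 fell, again beside 3.56% of all genes, with a list median of -0.15. Guf1, a relative of the bacterial elongation factor LepA, read 6.39, 6.85 and 6.78 in dKO arrays, against 7.67, 7.59 and 7.62 in control arrays (-0.95 ± 0.16 SE, adjusted p = 0.0178). Oxa1l, which inserts new proteins into the inner membrane, differed by -0.43, and Mrrf, the ribosome recycling factor, by -0.31, and neither passed.

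Of 21 mitochondrial aminoacyl-tRNA synthetases and related enzymes measured, 3 fell, beside 3.56% of all genes, and 18 of 21 were lower by sign, beside 49.3% of all genes. The median was -0.23. Gatb, a subunit of the amidotransferase that completes glutaminyl-tRNA, read 7.38, 7.13 and 7.65 in dKO arrays, against 8.16, 8.48 and 8.30 in control arrays (-0.93 ± 0.18 SE, adjusted p = 0.0265). Pars2, the prolyl-tRNA synthetase, and Mars2, the methionyl-tRNA synthetase, fell by 0.97 and 0.89 (adjusted p = 0.0437 and 0.0324), both at low signals. The groups of all 3 were separate. With 1 array left out at a time, Guf1 passed in 3 of 6 fits (adjusted p = 0.0397 to 0.0567), Gatb in 1 (0.0384 to 0.0841) and neither Pars2 nor Mars2 in any (0.0664 to 0.12 and 0.0569 to 0.103).

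Genes of mitochondrial DNA upkeep and transcription had a median of -0.32, and 18 of 19 measured were lower by sign, beside 49.3% of all genes. Of the 19, 2 were called lower, beside 3.56% of all genes. Twnk, the helicase of mitochondrial DNA, read 7.53, 7.58 and 7.53 in dKO arrays, against 8.20, 8.37 and 8.74 in control arrays (-0.89 ± 0.17 SE, adjusted p = 0.0251). Mterf2, of the termination factor family, read 5.32, 5.39 and 5.42 in dKO arrays, against 6.18, 6.40 and 7.01 in control arrays (-1.15 ± 0.22 SE, adjusted p = 0.0266). In both, the control arrays were more spread than the dKO arrays, and with 1 array left out Twnk passed in 1 of 6 fits (adjusted p = 0.0373 to 0.0817) and Mterf2 in 2 (0.0327 to 0.0877). Polg, the catalytic subunit of the mitochondrial DNA polymerase, gave -0.65 (adjusted p = 0.053), or -0.42 for the mean over its probe sets.

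None of 9 regulators of mitochondrial biogenesis passed limma's threshold, and 2 had an unadjusted p under 0.05, a share near the 23.1% of all genes. Ppargc1b, a transcriptional coactivator, differed by -1.23, the nuclear receptor Esrra by -0.72 and Pprc1 by -0.30 (adjusted p = 0.0845, 0.128 and 0.332). The mean over the probe sets of Esrra was -0.31, and Pprc1 gave -0.18 without control replicate 3. The median of these regulators was -0.09.

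**Figure D5:**
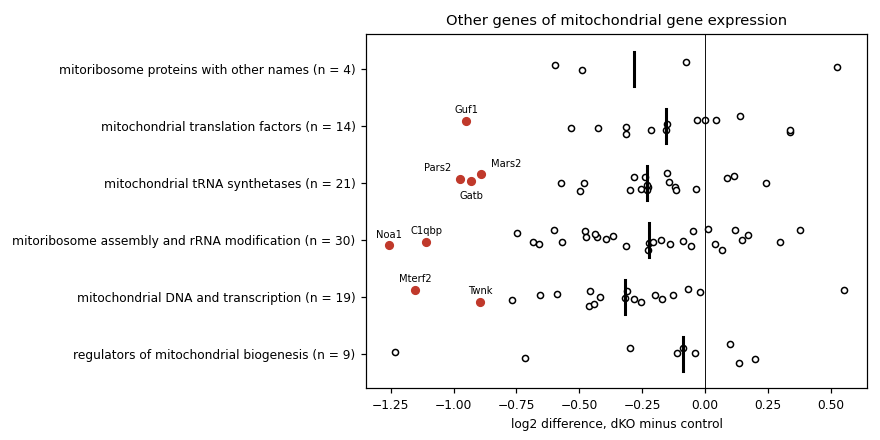
Log2 difference, dKO minus control, of each measured gene in 6 lists of genes that act with the mitochondrial ribosome, with a line at each list's median. Filled points passed the threshold; these 8 genes all lie below 0, and list medians run from -0.32 to -0.09.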

How the data were processed

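Expression was measured on a whole-genome mouse array in 3 dKO and 3 control pools. Per the labels' protocols, RNA was extracted with Trizol, amplified (NuGEN WT-Ovation Pico, 2 rounds) and labelled with biotin. Such amplification can distort differences between transcripts. The deposited values are log2 expression values from RMA, per the submitters' processing notes; the version of RMA is not given in the sources used here. RMA brings the arrays to a common scale, which hides total RNA per cell, and it compresses changes of dim probe sets. Array medians lay between 5.90 and 5.97. Arrays of the same group correlated at 0.974 to 0.981, and those of different groups at 0.956 to 0.969. The number of arrays limits the precision.

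Probe sets were named through the platform annotation: 34945 of 45037 non-control probe sets had 1 symbol. RefSeq's table (GRCm38.p6) held all 76 members and changed 0 symbols. A further 4 probe sets list a member together with another gene and are not named. Groups came from the sample titles. Each probe set was fitted with lmFit and eBayes (limma 3.58.1, R 4.3.3; 4 residual and 3.19 prior degrees of freedom), dKO minus control. Adjusted p-values are limma's, by Benjamini-Hochberg over 45037 probe sets, with a threshold of 0.05. For the mean over probe sets they are over 18193 genes, and for the filter over the probe sets kept. The p-values weigh each difference against the spread between pools, moderated by limma's prior. Pools held 3 dKO or 2 control mice, so this spread is not that between mice. SE and 95% intervals are limma's.

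The genes given with values were chosen by rule: Mrpl43, called members, the 3 uncalled members of smallest p in each subunit, the brightest and dimmest, members with a further called probe set, the 3 genes of smallest p in each partner list, Myc and Mycn. Further members were chosen after their values were seen, to fill in each role: Mrpl1, Mrpl2, Mrpl20, Mrpl23, Mrpl36, Mrpl37, Mrpl46, Mrps2, Mrps15, Mrps18a, Mrps24, Mrps30 and Mrps36. The members, the partner and marker lists and the tests were chosen with earlier results of these data known. Alternatives were median centring, quantile normalization, removal of dim probe sets (filter on level), array weights, a robust trended prior, a replicate block, other choices of probe set, subunits by structure and leaving out each array.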

Additional observations from a re-analysis of the deposited data

How the results depend on the processing

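The count of members called depended on the setting. Members called lower, 2 as reported, numbered 1 with each array centred on its median, 3 with quantile normalization (Mrpl23 added), 3 with the mean over probe sets (Mrpl9, Mrpl23 and the small subunit gene Mrps5, without Mrpl48), 4 with the filter on level and 4 with the trended robust prior, and 0 to 1 with an array left out. Members called higher, 0 as reported, numbered 2 with median centring, 2 with the filter, 3 with the trended robust prior, 4 with the mean over probe sets and 1 with the highest variance probe set. Calls among all genes, in either direction, were 8.05% as reported and 8.31% with median centring. The share was 7.93% with quantile normalization, 18.6% with the filter and 10.7% with the trended robust prior. With the mean over probe sets it was 11.2%, with the highest variance probe set 9.03% and with an array left out 3.52% to 4.42%. Mrpl40 and Mrpl18 were among those called higher under the filter, centring, the trended prior and the mean over probe sets. Under the filter and the trended prior the added lower calls were Mrpl19 and Mrpl23. The filter tests fewer genes, and the mean over probe sets makes 1 test per gene. The cause of the other shifts was not tested. With the replicate block, 1530 probe sets and 0 members were called, against 3146 and 2. Equal numbers did not pair the arrays: the correlations of their deviations were -0.016, 0.0024 and 0.013. Leaving out an array left 1338 to 1674 probe sets. The median of all members was -0.035 with the mean over probe sets and -0.11 with the highest variance probe set; that of the small subunit was 0.033 with the mean over probe sets and that of the large subunit -0.117 with the highest variance probe set. Mrps11 turned to -0.028 and -0.553 under these choices. For single genes, 601 values kept direction and side of the threshold, 54 lost a call and 25 gained one. Cytosolic ribosomal protein genes called lower numbered 10 to 34, with medians of -0.80 to -0.58.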
